A study of Mus musculus with 10 samples.

Results

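The CC chemokines described here were 10 of the 55421 genes in the count table, Ccl2, Ccl3, Ccl4, Ccl5, Ccl6, Ccl7, Ccl8, Ccl9, Ccl12 and Ccl24, taken by gene symbol from the family of secreted proteins that carry a pair of adjacent cysteines near the amino terminus. Poly(A) RNA-seq of 10 bulk samples gave their levels in adult mice that had carried an implanted MC17-51 fibrosarcoma until day 15. Tumor-associated macrophages (TAMs, CD11b+F4/80+ cells sorted from the tumor) came from 3 samples of Shp2f/f mice and 3 of Shp2f/fLysMcre mice, and myeloid-derived suppressor cells (MDSCs, GR-1+ cells taken from the spleen of tumor-bearing mice) came from 2 samples of each genotype. In Shp2f/f mice both copies of Ptpn11, the gene of the phosphatase SHP-2, are flanked by loxP sites and intact, and these mice served as controls. Shp2f/fLysMcre mice carry the same floxed copies with Cre at the lysozyme M gene, which is active in macrophages, granulocytes and many monocytes, so that the deletion is neither limited to the sorted cells nor complete in each of them. All 4 groups carried the tumor and the floxed alleles.

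CC chemokines are released by activated leukocytes and stromal cells, bind G-protein-coupled receptors and draw leukocytes along their gradient. CCL2, CCL7 and CCL12 bring CCR2-bearing monocytes from bone marrow and spleen into tumors, CCL3, CCL4 and CCL5 draw T cells, NK cells and myeloid cells, and CCL24 draws CCR3-bearing eosinophils. Macrophages transcribe many of them after signals through NF-kB and AP-1, and some after interferon or interleukin-4.

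In GRCm38 the genes lie in tight groups. Ccl2, Ccl7, Ccl12 and Ccl8 stand in this order on the plus strand of chromosome 11, from 82035571 to 82116799, a span of 81229 bases. Ccl5, Ccl9, Ccl6 and Ccl3 on the minus strand and Ccl4 on the plus strand lie further along chromosome 11, from 83525778 to 83664683, and Ccl24 lies alone on the minus strand of chromosome 5, from 135569937 to 135573049. The annotation places the antisense gene Gm17268 over Ccl2, which had 0 counts in each sample, and E230016K23Rik over Ccl6, which had 41 to 88 counts against at least 14684 for Ccl6.

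The RefSeq promoter table of GRCm38.p6 held 5 of the 10 genes. Their sequences are shown because neighbours in these groups moved by different amounts or in opposite directions in TAMs: Ccl12 and Ccl8 at chr11:82101595-82101844 and chr11:82114935-82115184 on the plus strand, and Ccl9, Ccl6 and Ccl3 at chr11:83578637-83578886, chr11:83593088-83593337 and chr11:83649379-83649628 on the minus strand. Each line gives the 250 bases before the start, 5′ to 3′. Capitals mark matches, on either strand, to the TATA box TATAAA, the PU.1 core GAGGAA, the AP-1 site TGANTCA, the STAT element TTCNNNGAA or the NF-kB consensus.
Ccl8: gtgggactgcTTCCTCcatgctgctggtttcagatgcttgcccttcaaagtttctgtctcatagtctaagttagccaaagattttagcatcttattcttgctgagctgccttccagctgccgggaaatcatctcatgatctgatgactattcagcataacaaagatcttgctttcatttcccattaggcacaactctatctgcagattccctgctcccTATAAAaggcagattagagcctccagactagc
Ccl12: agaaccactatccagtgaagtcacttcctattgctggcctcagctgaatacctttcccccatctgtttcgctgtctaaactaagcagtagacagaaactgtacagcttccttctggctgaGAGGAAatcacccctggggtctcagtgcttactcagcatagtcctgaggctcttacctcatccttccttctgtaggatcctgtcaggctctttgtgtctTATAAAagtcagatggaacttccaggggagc
Ccl3: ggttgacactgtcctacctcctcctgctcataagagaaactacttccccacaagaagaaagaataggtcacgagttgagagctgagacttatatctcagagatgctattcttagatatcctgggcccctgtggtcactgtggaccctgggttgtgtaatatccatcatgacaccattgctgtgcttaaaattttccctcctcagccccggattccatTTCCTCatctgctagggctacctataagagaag
Ccl6: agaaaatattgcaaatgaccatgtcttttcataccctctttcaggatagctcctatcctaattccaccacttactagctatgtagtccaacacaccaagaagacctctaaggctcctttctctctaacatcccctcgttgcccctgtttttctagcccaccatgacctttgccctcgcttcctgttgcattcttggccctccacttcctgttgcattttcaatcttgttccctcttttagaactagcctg
Ccl9: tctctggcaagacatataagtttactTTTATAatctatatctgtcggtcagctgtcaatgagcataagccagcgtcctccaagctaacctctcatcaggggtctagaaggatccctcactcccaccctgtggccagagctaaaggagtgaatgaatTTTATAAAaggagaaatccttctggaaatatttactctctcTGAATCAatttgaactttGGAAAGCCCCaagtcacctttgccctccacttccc
Ccl8 and Ccl12 each held TATAAA, ending 27 and 26 bases before the start, and a PU.1 core, and their aligned windows were identical at 54.9% of positions, against 45.0% to 49.5% for the other 9 pairs. Ccl9 held TATAAA 87 bases before its start, overlapping a match on the other strand, and it held the AP-1 match and the NF-kB match of these 5 windows. Ccl3 held a PU.1 core, the letters searched were not found in Ccl6, and no window held the STAT element. Of 32841 promoter windows of the same length, 12.4% held TATAAA, 23.3% the PU.1 core, 7.25% the NF-kB consensus, 6.75% the AP-1 site and 7.02% the STAT element. The annotated start of Ccl3 in the gene models lies 23 bases from the RefSeq start, and the other 4 starts are the same base.

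Library totals were 28844660 to 38222998 counts. Ptpn11, the targeted gene, stood at 119.4 to 121.9 CPM (read counts relative to the scaled library total) in Shp2f/f TAMs and 48.8 to 51.9 CPM in Shp2f/fLysMcre TAMs (log2 fold change -1.24 ± 0.0386 SE, adjusted p = 2.96e-09), and at 104.2 to 118.9 against 82.7 to 99.9 CPM in MDSCs, where it was not called (log2 fold change -0.29 ± 0.143 SE, adjusted p = 0.361). Macrophage markers summed to 7236 to 9936 CPM in TAMs and were present in MDSCs too, at 1968 to 2613 CPM. MDSC libraries held neutrophil markers (summed level 8836 to 8948 CPM in Shp2f/f and 22130 to 24250 CPM in Shp2f/fLysMcre) beside monocyte markers (7050 to 9708 CPM). The study's methods call the spleen cells PMN-MDSCs, Ly6G+ cells without Ly6C taken with magnetic beads, whereas in Shp2f/f MDSCs Ly6g was at 10.9 ± 2.22 CPM, the monocyte gene Ly6c2 at 523.0 ± 32.2 CPM and Csf1r at 1503 ± 16.5 CPM (SD, n = 2), so the MDSC values describe GR-1+ cells that held transcripts of both kinds. Shp2f/fLysMcre MDSC replicate 2 stood apart, with a summed level of 7 fibroblast and stroma markers of 562.5 CPM against 6.98 to 25.4 CPM in the other MDSC samples. Insulin and other islet genes summed to 855.1 to 6743 CPM in Shp2f/f TAMs and 5.79 to 74.7 CPM in Shp2f/fLysMcre TAMs. Xist was at 9.89 and 284.2 CPM on average in Shp2f/f and Shp2f/fLysMcre TAMs and 4 of 4 Y-linked genes were lower in the latter, so that the sex of the mice and the genotype cannot be told apart. In MDSCs 1 of 5 sex-linked genes was called higher and 3 lower in Shp2f/fLysMcre samples (median log2 fold change -1.087), so this limit applies there too.

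In TAMs, 8 of the 10 chemokines were higher in Shp2f/fLysMcre than in Shp2f/f samples and 1, Ccl12, was lower (adjusted p under 0.05 by edgeR's quasi-likelihood test, adjusted over all genes tested), and Ccl5 was not called. The changes were moderate, from 1.22-fold for Ccl9 to 1.81-fold for Ccl8, with a median log2 fold change of 0.584 against -0.013 over all genes. The genotypes differed widely in these cells: 50.2% of the 14446 genes tested were called, 23.9% higher and 26.3% lower, and the samples of the genotypes did not overlap for 58.2% of genes and for 9 of the 10 chemokines. Scaling to total counts in place of TMM factors moved the median of all genes to -0.111 and the calls from 3452 higher and 3805 lower to 2342 and 5227. The 9 chemokines called kept their calls and directions under that scaling. Because these are bulk samples, fewer cells of a type and less RNA per cell cannot be told apart. The 8 macrophage markers were higher in Shp2f/fLysMcre TAMs too (8 of 8 called, median log2 fold change 0.588, summed level 9389 to 9936 against 7236 to 7470 CPM), and their part in the chemokine differences was not tested.

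**Figure D1:**
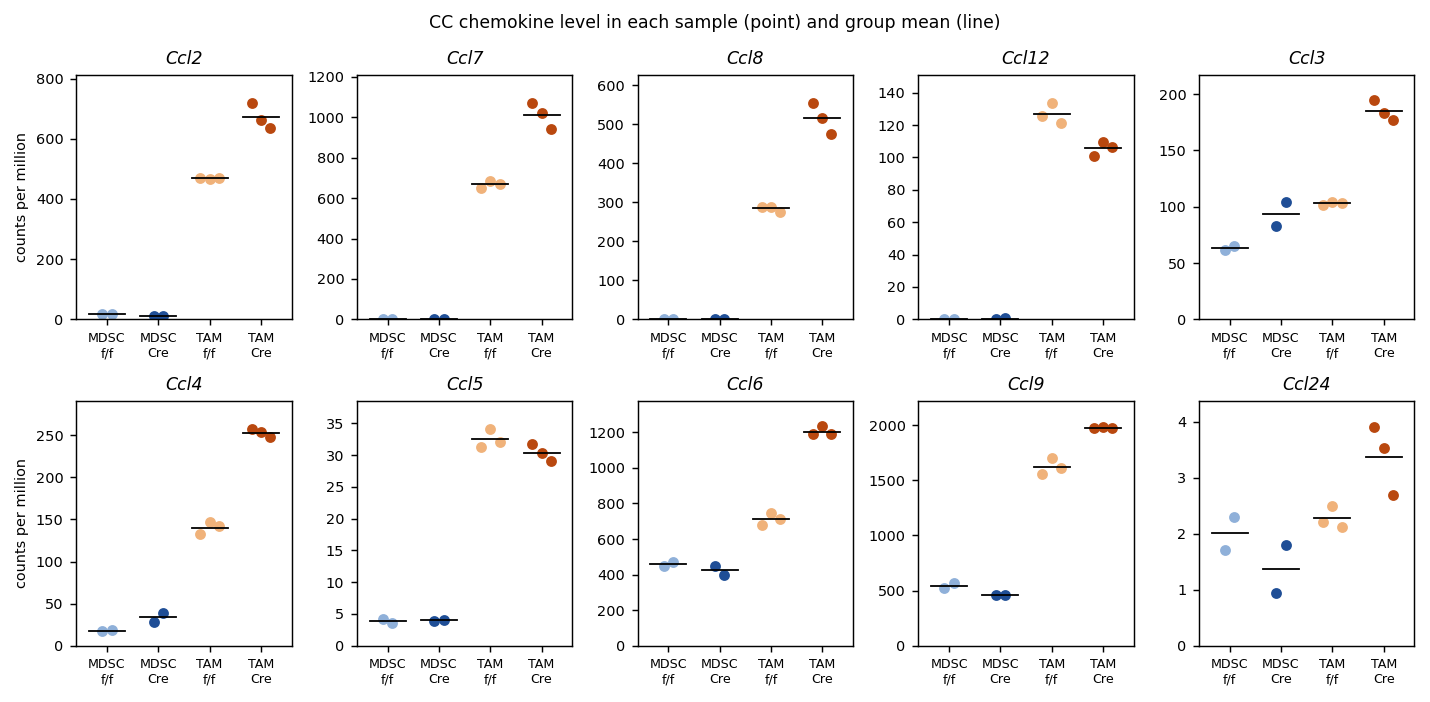
Level of each CC chemokine in CPM (y axis, starting at 0) in each sample (point) of the MDSC and TAM groups, f/f for Shp2f/f and Cre for Shp2f/fLysMcre, with the group mean as a line; values are scaled within each cell type. Ccl8 rose from 275.7 to 288.9 in Shp2f/f TAMs to 475.1 to 553.1 in Shp2f/fLysMcre TAMs, whereas Ccl12 lay lower in the latter and both were near 0 in MDSCs.

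The monocyte attractants near each other on chromosome 11 did not move as a block in TAMs. Ccl2, the main ligand of CCR2, was at 469.3, 467.2 and 468.5 CPM in the 3 Shp2f/f samples and at 717.9, 660.9 and 636.9 CPM in the 3 Shp2f/fLysMcre samples. Each Shp2f/fLysMcre sample lay above each control, and the log2 fold change was 0.52 ± 0.0455 (SE, adjusted p = 3.55e-06). Ccl7, which binds CCR2 as well as CCR1 and CCR3, was at 647.9, 686.7 and 671.3 CPM in controls and at 1068, 1022 and 943.3 CPM after deletion. Its groups were apart as well, with a log2 fold change of 0.60 ± 0.047 (adjusted p = 1.63e-06).

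Ccl8 and Ccl12, which lie next to each other, moved in opposite directions. Ccl8, a ligand of CCR8 in mice, stood at 287.5, 288.9 and 275.7 CPM in Shp2f/f TAMs and at 553.1, 516.9 and 475.1 CPM in Shp2f/fLysMcre TAMs, the largest log2 fold change of the 10 genes, if close to those of Ccl3 and Ccl4 (0.86 ± 0.0534, adjusted p = 3.09e-07). Ccl12, a CCR2 ligand of mice, stood at 125.4, 133.4 and 121.4 CPM and at 101.0, 109.6 and 106.4 CPM, respectively. All 3 Shp2f/fLysMcre samples were thus below the lowest control, by a log2 fold change of -0.26 ± 0.0465 (adjusted p = 0.000706), and the call was lost when all 10 samples were fitted together (log2 fold change -0.23, adjusted p = 0.252). The ratio of Ccl8 to Ccl12 counts was 2.17 to 2.29 in controls and 4.46 to 5.48 in Shp2f/fLysMcre samples. These paralogs are similar in sequence, and how the authors treated reads that map to more than one place is not given in the sources used here.

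The inflammatory chemokines Ccl3 and Ccl4 rose together in TAMs. Ccl3 was at 102.0, 104.0 and 103.3 CPM in Shp2f/f samples and at 194.7, 183.3 and 176.9 CPM in Shp2f/fLysMcre samples. Ccl4, its neighbour on the other strand, was at 132.7, 146.6 and 141.7 CPM and at 257.4, 253.7 and 248.0 CPM. For neither gene did the genotypes overlap, and the log2 fold changes were 0.84 ± 0.0427 (adjusted p = 7.71e-08) and 0.85 ± 0.0441 (adjusted p = 8.68e-08). The ratio of Ccl3 to Ccl4 counts stayed between 0.710 and 0.769 in the 6 TAM samples.

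Ccl5, which attracts T cells and is made by T cells, NK cells and macrophages, was not called. It stood at 31.2, 34.2 and 32.1 CPM in Shp2f/f TAMs and at 31.8, 30.4 and 29.0 CPM in Shp2f/fLysMcre TAMs, and the samples of the genotypes overlapped (log2 fold change -0.10 ± 0.0526, 95% interval -0.199 to 0.007, adjusted p = 0.157). Under scaling to total counts it was called lower (log2 fold change -0.19, adjusted p = 0.00642). T and NK cell markers were lower in Shp2f/fLysMcre TAMs (9 of 10 called, summed level 7.66 to 8.81 against 21.8 to 22.3 CPM, no marker at 0), and their part in the level of Ccl5 was not tested.

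Ccl6 and Ccl9, CCR1 ligands that myeloid cells express without stimulation and that have no close human counterpart, gave the highest counts. Ccl6 was at 680.3, 744.6 and 711.0 CPM in Shp2f/f TAMs and at 1191, 1234 and 1189 CPM in Shp2f/fLysMcre TAMs (log2 fold change 0.76 ± 0.0396, adjusted p = 8.99e-08). Ccl9 was at 1553, 1704 and 1610 CPM and at 1978, 1979 and 1976 CPM (log2 fold change 0.29 ± 0.0357, adjusted p = 5.38e-05). The genotypes were apart for both, and Ccl6 moved further: the ratio of Ccl6 to Ccl9 counts was 0.437 to 0.442 in controls and 0.602 to 0.623 in Shp2f/fLysMcre samples.

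Ccl24, the eosinophil attractant that interleukin-4 induces in macrophages, was scarce. It stood at 76, 98 and 79 counts in Shp2f/f TAMs and at 126, 125 and 76 counts in Shp2f/fLysMcre TAMs, or 2.13 to 2.49 against 2.69 to 3.90 CPM. The CPM did not overlap, but the third Shp2f/fLysMcre sample lay close to the controls (log2 fold change 0.57 ± 0.164, adjusted p = 0.0133). The call was lost without Shp2f/fLysMcre replicate 1 (adjusted p = 0.0558) or replicate 2 (adjusted p = 0.0522) and when all 10 samples were fitted together (adjusted p = 0.108).

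**Figure D2:**
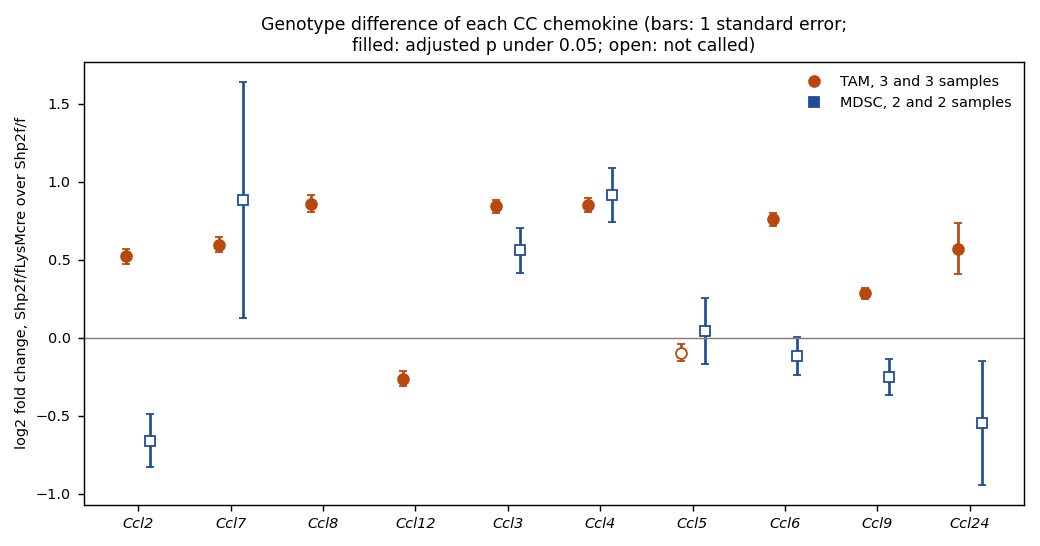
Log2 fold change of each CC chemokine, Shp2f/fLysMcre over Shp2f/f (y axis), in TAMs (circles, 3 and 3 samples) and MDSCs (squares, 2 and 2 samples), with bars of 1 standard error; filled symbols passed an adjusted p of 0.05 and open symbols did not. Ccl3 and Ccl4 were above 0 in both cell types, Ccl2, Ccl6, Ccl9 and Ccl24 lay on opposite sides of 0, and Ccl8 and Ccl12 had too few counts for a test in MDSCs.

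In MDSCs none of the 8 chemokines with enough counts for a test was called by edgeR's quasi-likelihood test, against 4.28% of the 14806 genes tested, whereas DESeq2 called Ccl3 and Ccl4. At an unadjusted p under 0.05 there were 3, Ccl2, Ccl3 and Ccl4, against 19.3% of genes, and the 2 samples of each genotype did not overlap for 4 chemokines, against 49.1% of genes. Ccl4 was at 17.5 and 18.1 CPM in Shp2f/f MDSCs and at 28.4 and 38.6 CPM in Shp2f/fLysMcre MDSCs (log2 fold change 0.91 ± 0.173, adjusted p = 0.0535 by edgeR, 0.00201 by DESeq2 and 0.0429 by edgeR with a filter of 1 CPM). Ccl3 was at 61.6 and 65.0 CPM and at 82.6 and 104.1 CPM (log2 fold change 0.56 ± 0.144, adjusted p = 0.111 by edgeR and 0.0247 by DESeq2). Both genes had their highest value in replicate 2 of the deletion group, the sample with stromal transcripts.

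Ccl2 was at 16.5 and 19.2 CPM in Shp2f/f MDSCs and at 10.02 and 12.6 CPM in Shp2f/fLysMcre MDSCs, which is the opposite direction to that in TAMs (log2 fold change -0.66 ± 0.168, adjusted p = 0.108). The abundant Ccl9 was at 519.3 and 571.6 CPM and at 457.9 and 457.2 CPM (log2 fold change -0.25 ± 0.117, adjusted p = 0.326). Ccl6 was at 447.8 and 472.6 CPM and at 449.6 and 398.4 CPM (log2 fold change -0.12 ± 0.123, 95% interval -0.359 to 0.123). For these genes only Ccl6 had overlapping genotypes. Ccl5 was at 4.18 and 3.52 CPM against 3.83 and 4.11 CPM, and Ccl24 at 1.71 and 2.30 CPM against 0.942 and 1.79 CPM, with overlap for both.

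Ccl7, Ccl12 and Ccl8 were close to absent from MDSCs. Ccl7 had 16 and 10 counts in Shp2f/f samples and 9 and 46 in Shp2f/fLysMcre samples, Ccl12 had 5 and 3 against 3 and 23, and Ccl8 had 1 and 0 against 4 and 1. For the sample without a Ccl8 count, 3 counts would be 0.0893 CPM, the limit that a count of 0 allows for counting error alone. The highest Ccl7 and Ccl12 counts were those of replicate 2 of the deletion group, whose stromal markers were also high; the part of stroma in these counts was not tested. With that sample left out, the log2 fold changes were -0.83 for Ccl2, -1.09 for Ccl24, 0.38 for Ccl3 and 0.67 for Ccl4, and Ccl7 turned to -0.62. Without replicate 1 of that group they were -0.53 for Ccl2, -0.19 for Ccl24, 0.69 for Ccl3, 1.09 for Ccl4 and 1.56 for Ccl7. Leaving out either control sample kept the signs of the fit to all MDSC samples for these genes. In each of these fits the sample left alone in its group was taken to vary like the pair of the other genotype.

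The genotype effect differed between the cell types for 3 of the 10 chemokines by the interaction term of a fit to all samples, against 24.9% of 16581 genes (2030 higher and 2102 lower, or 1234 and 3132 under scaling to total counts, where Ccl2, Ccl6 and Ccl9 kept their calls). The effect in TAMs exceeded that in MDSCs by 1.21 ± 0.149 on the log2 scale for Ccl2 (adjusted p = 0.000371), by 0.91 ± 0.0994 for Ccl6 (adjusted p = 0.000183) and by 0.57 ± 0.0941 for Ccl9 (adjusted p = 0.00204). Each of these rose in TAMs and had a negative fold change in MDSCs. For Ccl4 the difference was -0.04 with a 95% interval of -0.354 to 0.282, and for Ccl3 it was 0.31 with an interval of 0.047 to 0.574 (adjusted p = 0.123). Ccl24 differed by 1.14 (adjusted p = 0.0711). With a replicate block, which raised the calls over all genes from 4132 to 5231, Ccl3 (adjusted p = 0.0481) and Ccl24 (adjusted p = 0.0194) were called too. The TAMs and MDSCs came from the same mice by the study's methods, but the labels do not tie samples to animals, and the fit took the 10 samples as independent. The few MDSC counts of Ccl7, Ccl8 and Ccl12 left intervals at least as wide as -1.453 to 0.888. Macrophage markers differed in the same way, with 6 of 8 called higher for the TAM effect than for the MDSC effect, and this was not taken into account in the fit. Loss of the targeted transcript differed too: the interaction of Ptpn11 was -0.925 on the log2 scale and was called lower. The part of this in the chemokine differences was not tested.

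TAMs and MDSCs with intact SHP-2 carried different sets of these transcripts. Against Shp2f/f MDSCs, 9 of the 10 were higher in Shp2f/f TAMs and Ccl24 was not called (log2 fold change 0.28 ± 0.203, adjusted p = 0.232), where 78.8% of all genes were called, 40% higher and 38.8% lower. The CCR2 ligands and Ccl8 differed most. Ccl7 had 74168 counts in the 3 TAM samples and 26 in the 2 MDSC samples, a ratio of 1780 after scaling to total counts (95% interval 1210 to 2720 from counting error alone), and Ccl12 had 14057 and 8, a ratio of 1100 (interval 556 to 2540). Ccl8 had 31466 counts and 1 count, a ratio of 19600 with an interval of 3520 to 775000. Ccl2 was 28.0-fold higher (log2 fold change 4.81 ± 0.0743), Ccl5 9.01-fold, Ccl4 8.42-fold and Ccl9 3.17-fold higher. Of the 9 genes called, Ccl3 and Ccl6 differed least, by log2 fold changes of 0.80 ± 0.0454 and 0.72 ± 0.0545. Tissue, sorting method and cell type cannot be told apart in this contrast.

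Per kilobase of exon, the order of the levels differed between TAMs and MDSCs too. In Shp2f/f TAMs Ccl7 led with 850 CPM per kb, followed by Ccl8 (566) and Ccl9 (542.5), whose ranges overlapped, then Ccl2 (419) and Ccl6 (403.9), which overlapped as well, Ccl12 (240.3), Ccl4 (216.5), Ccl3 (137.1), Ccl5 (34.5) and Ccl24 (1.79). In Shp2f/fLysMcre TAMs Ccl7 (1318 CPM per kb) and Ccl8 (1052) still led, Ccl6 (700.5) stood above Ccl9 (677.8), and Ccl12 (205.4) had fallen below Ccl4 (400.1) and Ccl3 (252), with no overlap between neighbours. In Shp2f/f MDSCs the order was Ccl6 (244.2 CPM per kb), Ccl9 (170.6), Ccl3 (78.7), Ccl4 (25.7) and Ccl2 (14.9), then Ccl5 (3.82), Ccl24 (1.47), Ccl7 (0.470), Ccl12 (0.216) and Ccl8 (0.0284), and it was the same in Shp2f/fLysMcre MDSCs, where Ccl24, Ccl7, Ccl12 and Ccl8 overlapped with their neighbours. Ccl6 and Ccl9 together made up most of the summed level in MDSCs (45.2% and 31.6% in Shp2f/f samples on average), against 11.8% and 15.9% in Shp2f/f TAMs. The order and shares depend on the length of all annotated exons, 3045 bases for Ccl9 and 1795 for Ccl6. In CPM without that division Ccl9 stood above Ccl6 in each group.

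**Figure D3:**
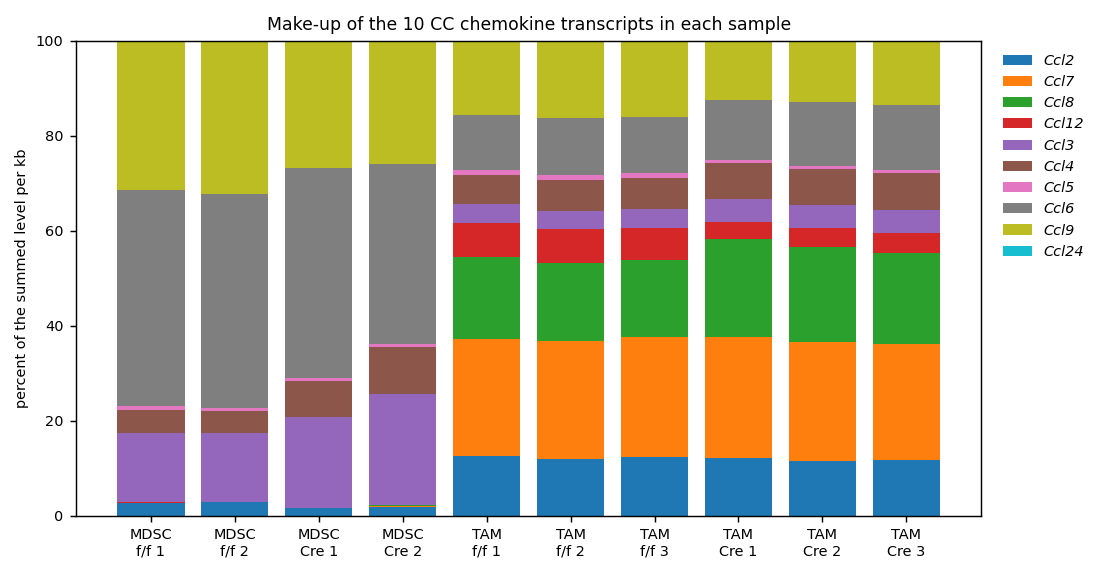
Share of each of the 10 CC chemokines in their summed level per kilobase of exon (y axis, percent) in each sample (bar). MDSC bars consist mainly of Ccl6 and Ccl9 with Ccl3, whose mean share was 14.6% in Shp2f/f and 21.1% in Shp2f/fLysMcre samples, whereas in TAMs Ccl7 and Ccl8 held 24.9% and 16.6% in Shp2f/f samples.

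The 10 genes together took 0.418% to 0.444% of all counts in Shp2f/f TAMs and 0.565% to 0.583% in Shp2f/fLysMcre TAMs, and 0.101% to 0.113% in the 4 MDSC samples. Shares within the sum also moved. In TAMs Ccl8 held 16.2% to 17.2% of the summed level per kb in controls and 19.3% to 20.7% after deletion, while Ccl12 went from between 6.8% and 7.2% to between 3.6% and 4.12%. Ccl7 kept a share of 24.5% to 25.5% across the 6 TAM samples. The ratio of Ccl3 to Ccl4 counts, steady in TAMs, was 3.53 and 3.59 in Shp2f/f MDSCs and 2.91 and 2.7 in Shp2f/fLysMcre MDSCs.

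**Figure D4:**
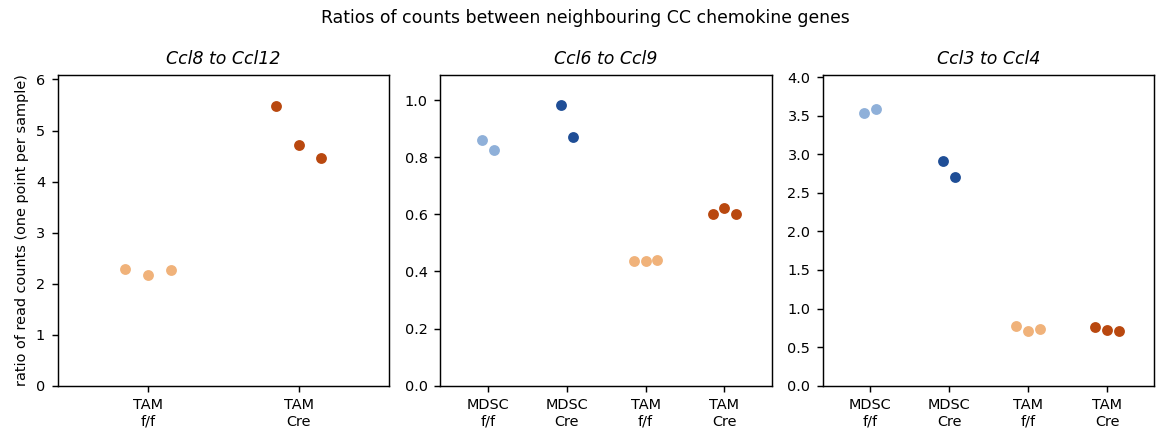
Ratio of the read counts of neighbouring CC chemokine genes (y axes, starting at 0) in each sample (point); Ccl8 to Ccl12 is shown for TAMs only because MDSCs had few counts. The Ccl8 to Ccl12 ratio was 2.17 to 2.29 in Shp2f/f and 4.46 to 5.48 in Shp2f/fLysMcre TAMs, and the Ccl3 to Ccl4 ratio was below 1 in each TAM sample and above 2 in each MDSC sample.

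Of the 14 other CC chemokines of the family list, 2 were tested in TAMs. Ccl22, which draws CCR4-bearing regulatory T cells, fell from 4.37 ± 0.00746 to 1.99 ± 0.140 CPM (SD, n = 3 each; log2 fold change -1.13, adjusted p = 2.19e-05 by edgeR), and Ccl25 was at 2.62 ± 0.364 and 2.06 ± 0.104 CPM (adjusted p = 0.0974). In MDSCs 3 were tested (Ccl22, Ccl25 and Ccl27a) and none was called. The other members of that list did not pass the filter on low counts in these contrasts.

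Receptors of these ligands were expressed in the same libraries and did not move together in TAMs. Ccrl2, which binds chemerin and does not signal, rose from 229.8 to 239.2 CPM to 351.0 to 368.2 CPM (log2 fold change 0.62 ± 0.0382). Ccr2 fell from 377.9 to 418.8 CPM to 290.2 to 294.7 CPM (log2 fold change -0.45 ± 0.0436, adjusted p = 7.55e-06), where of its ligands Ccl2 and Ccl7 rose and Ccl12 fell. Monocyte markers, among them Ccr2 itself, summed to 955.4 to 1028 CPM in Shp2f/f and 758.2 to 764.3 CPM in Shp2f/fLysMcre TAMs, and their part in the level of Ccr2 was not tested. Ccr3, an eosinophil receptor, fell from 8.23 ± 0.207 to 3.86 ± 0.252 CPM. Eosinophil markers, among them Ccr3 itself, summed to 8.72 to 9.42 CPM against 3.94 to 4.85 CPM. That sum is close to the level of Ccr3 alone and is not a separate measure of eosinophils. The granule genes Epx or Prg2 were at 0 in 5 of the 6 samples. Ccr7 was lower too, at 8.38 CPM on average in Shp2f/f and 6.27 CPM in Shp2f/fLysMcre TAMs. So was Ccr9, which had few reads, 17 to 22 counts in Shp2f/f and 5 to 11 in Shp2f/fLysMcre samples. Ccr1, the receptor of CCL6 and CCL9, was at 320.6 to 344.2 and 343.9 to 377.5 CPM and was not called (log2 fold change 0.12 ± 0.0457, adjusted p = 0.0527). In MDSCs Ccr2 was at 1999 to 2062 CPM in Shp2f/f MDSCs and 1254 to 1563 CPM in Shp2f/fLysMcre MDSCs (log2 fold change -0.53 ± 0.149, adjusted p = 0.133) and was not called. The interaction was called for Ccrl2 (0.70, adjusted p = 0.000227), Ccr3 (-1.41, adjusted p = 0.00438) and the scarce Ccr9 (-2.89, adjusted p = 0.00803). The scavenging receptor Ackr1 had 0 counts in TAMs, and Ackr2 had 1 to 4.

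**Figure D5:**
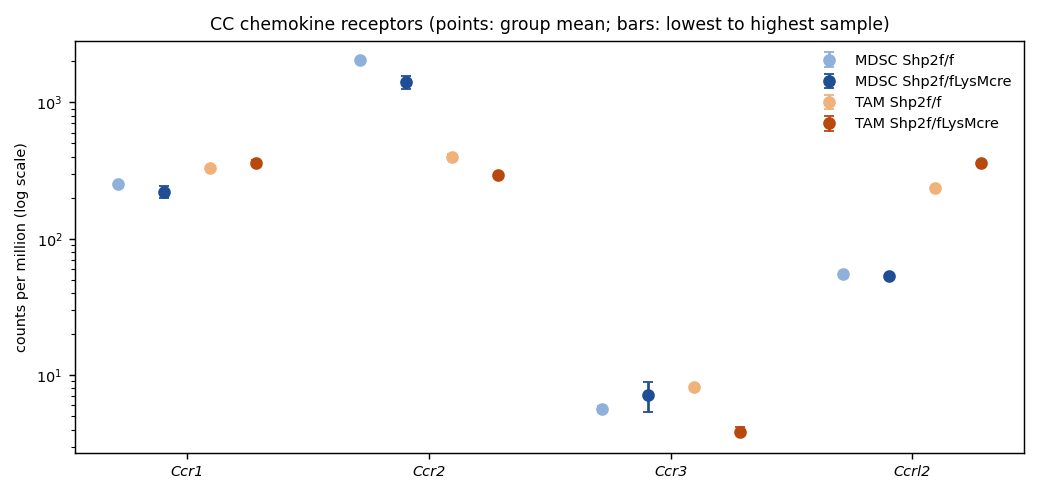
Level of the receptor genes Ccr1, Ccr2, Ccr3 and Ccrl2 in CPM (y axis, log scale) by group: points are group means and bars run from the lowest to the highest sample. Ccrl2 rose from 233.9 to 360.0 on average between Shp2f/f and Shp2f/fLysMcre TAMs, whereas Ccr2 fell from 399.9 to 292.3 and was higher in MDSCs than in TAMs.

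Genes of the signals that induce these chemokines were counted in Shp2f/fLysMcre TAMs beside the calls over all genes, 23.9% higher and 26.3% lower with a median log2 fold change of -0.013 (2342 and 5227 of 14446 genes under scaling to total counts). Of 23 NF-kB and inflammatory genes 18 were higher and 3 lower (median log2 fold change 0.208), or 12 and 4 under scaling to total counts. The stress-induced transcription factor genes Atf3, Jun and Fos and the endotoxin receptor gene Tlr4 moved most, with log2 fold changes of 1.28 ± 0.0358, 1.28 ± 0.0407, 1.03 ± 0.038 and 1.04 ± 0.0697. Of 12 interferon pathway genes 10 were higher and 0 lower (median 0.263; 8 and 0 under scaling to total counts), led by Irf5, a transcription factor of inflammatory macrophages, at 0.45 ± 0.041, with Stat2 at 0.35, and the receptor genes Ifngr1 and Ifnar2 at 0.34 each. Of 14 genes of the interleukin-4 pathway and alternative activation 11 were higher and 0 lower (median 0.596; 11 and 2 under scaling to total counts). Among them were Cd163, a scavenger receptor (97.0 ± 0.719 to 243.6 ± 4.73 CPM), Arg1, which breaks down arginine (378.2 ± 6.58 to 791.5 ± 26.8 CPM), Pparg and the receptor gene Il4ra (SD, n = 3). In MDSCs none of the NF-kB or interferon genes was called, and Mgl2 was called among the interleukin-4 genes (1.14 ± 0.586 to 6.95 ± 0.790 CPM, adjusted p = 0.0304).

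Of 13 genes tested that trim, bind or present chemokines, 6 were higher and 5 lower in Shp2f/fLysMcre TAMs, where 23.9% of all genes were higher and 26.3% lower. Their median log2 fold change was 0.081 against -0.013 over all genes. The proteases Mmp8 and Mmp12 rose (log2 fold changes 0.95 and 0.80), and Mmp9 and the heparan sulfate carrier Sdc1 fell (-1.06 and -0.80). Mmp8 is a neutrophil collagenase. The summed level of neutrophil markers, among them Mmp8 itself, was 434.5 to 460.3 CPM in these samples against 297.1 to 306.9 CPM in controls. The part of neutrophils in the rise of Mmp8 was not tested. Mmp9 was abundant, at 4000 ± 128.6 CPM in Shp2f/f and 1924 ± 41.6 CPM in Shp2f/fLysMcre TAMs. In MDSCs 3 of 15 were called, against 4.28% of all genes: the neutrophil granule proteases Elane, Ctsg and Prtn3, which were all higher. Elane and Ctsg had log2 fold changes of 1.41 and 1.21 (adjusted p = 0.0238 and 0.0230), and Prtn3 went from 205.1 ± 3.14 to 412.4 ± 18.5 CPM (SD, n = 2; adjusted p = 0.0187 by edgeR). There, neutrophil markers were higher too, with 4 of 8 called, and their part in these differences was not tested.

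Among the other genes near the chemokines, 2 of 6 tested around the second group and 2 of 3 tested around Ccl24 were called in TAMs, where 50.2% of all genes were. Around Ccl2, Ccl7, Ccl12 and Ccl8, none of the 6 other annotated genes within 100 kb had enough counts for a test in TAMs. Around the second group, which has 18 such genes, Wfdc17 and Wfdc21 were higher (log2 fold changes 0.61 and 0.63), while Taf15 (0.04, adjusted p = 0.529) and Heatr6 (0.03, adjusted p = 0.669) were not. Around Ccl24, Por and Hip1 were higher (log2 fold changes 0.24 and 0.21). In MDSCs, 1 neighbour of the second group, 1700020L24Rik, was called higher.

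Across the 10 samples, the genes whose log2 levels were most like those of the 3 chemokines with the highest TAM counts were, among 8850 genes at 10 CPM or more, Htra1, Clip2 and Ets2 for Ccl7 (Pearson r = 0.9996, 0.9995 and 0.9994), Enpp1, Cd84 and Itm2b for Ccl6 (r = 0.9942, 0.9937 and 0.9936) and Fabp5, Ppbp and Lgmn for Ccl9 (r = 0.9993, 0.9992 and 0.9992). The points of all these correlations share the split between TAMs and MDSCs, and 267 genes reached an r of 0.99 with Ccl7, 234 with Ccl9 and 14 with Ccl6.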

How the data were processed

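Poly(A) RNA of sorted TAMs (6 samples) and MDSCs (4 samples) was sequenced paired-end from stranded libraries. The authors deposited raw read counts per Ensembl gene. Per the labels and the submitters' processing notes, reads were checked with FastQC 0.11.5, trimmed with cutadapt 2.5, aligned to GRCm38 with STAR 2.7.3a and counted with featureCounts (Subread 1.6.2); the strand setting and the handling of reads with several positions are not given in the sources used here. A deposited table normalized with DESeq2 1.24.0 was not used here.

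Symbols and positions came from GENCODE models of GRCm38 (99.67% of identifiers matched). Counts of each contrast were filtered with filterByExpr (minimum count 10), scaled by TMM factors and tested with edgeR 4.0.16 (R 4.3.3; glmQLFit and glmQLFTest, 2-sided), with Benjamini-Hochberg adjustment over all genes tested and calls at an adjusted p under 0.05. SE is the log2 fold change over the root of its F statistic, and 95% intervals come from that SE and the normal distribution. With few samples these intervals are narrower than the quasi-likelihood tests allow. For Ccl9 in MDSCs the interval was -0.482 to -0.025, while that test gave an unadjusted p of 0.0768. The genotype was compared within each cell type, the cell types within Shp2f/f, and the difference of the genotype effects as an interaction over all 10 samples. CPM are TMM-scaled within a cell type, levels per kilobase use the summed exon length and a scaling over all 10 samples, and marker sums are CPM of the unscaled total count. The alternatives were DESeq2 1.42.0, limma-voom 3.58.1 with weights, other scalings, filters and thresholds, a replicate block, 1 fit of all samples, and leaving out each sample. The steps were tested on simulated data. Promoters were aligned with Biopython 1.88 (match 2, mismatch -1, gap opening -5, extension -0.5).

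The members, gene lists and markers were chosen with earlier results of these data known. Named were all members, Ptpn11, receptors of the members (1 is not reported here), tested genes of the other CC chemokines, up to 4 called genes with the largest change and a mean of at least 1 CPM in each other list, up to 4 called neighbours within 100 kb, and the 3 genes most like each of the 3 members with the highest TAM level (log2 of CPM plus 0.5); Ccr7, Ccr9, Taf15, Heatr6 and the marker genes were named after their values were seen. Nothing says whether a sample pooled several mice, so p-values measure the spread between these samples. Replicate numbers were not used to pair samples, since deviations of same-numbered samples correlated at -0.14 to 0.09 in TAMs. In MDSCs, with 2 samples per genotype, the same check could not decide. No sample pair agreed within sampling noise (chi-square per degree of freedom 4.46 to 58.1). This cannot tell separate mice from separate preparations of the same cells, since either can exceed sampling noise. The spread between replicates that edgeR estimated (biological coefficient of variation) was 0.0595 in TAMs and 0.189 in MDSCs. The p-values and the calls over all genes in each cell type rest on this spread.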

Additional observations from a re-analysis of the deposited data

Results flagged for a closer look

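The genotype effect differed between TAMs and MDSCs for 3 of the 10 CC chemokines, against 24.9% of 16581 genes. This was a test of the difference itself, the interaction term of edgeR's quasi-likelihood fit. The effect in TAMs exceeded that in MDSCs by 1.21 on the log2 scale for Ccl2, by 0.91 for Ccl6 and by 0.57 for Ccl9. For the targeted gene Ptpn11 the same term was -0.925 and was called, so its loss was larger in TAMs, and the part of this was not tested. Across the alternatives the log2 differences were 1.032 to 1.393 for Ccl2, 0.7374 to 0.991 for Ccl6 and 0.3965 to 0.6407 for Ccl9. These 3 chemokines passed the threshold in each alternative that gave a p-value and kept at least 2 samples per group.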

How the results depend on the processing

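In TAMs 7 to 10 of the chemokines were called under the alternatives, against 9, and no member changed direction; between TAMs and MDSCs with intact SHP-2, 9 were called under each. In MDSCs, against 0 called, DESeq2 called 2 (Ccl3, Ccl4), a filter of 1 CPM 1 (Ccl4), 1 fit of all 10 samples 4 (Ccl2, Ccl3, Ccl4, Ccl9), and leaving out a sample 0 to 5. For the difference of the effects, against 3, DESeq2 called 5 and leaving out a sample 3 to 5. The cause was not tested. Over all genes, DESeq2 called 4576 of 17736 for the difference of the effects, against 4132 of 16581 by edgeR. Calls among all genes in MDSCs, 633 with all samples, were 1 to 4406 with a sample left out, 1207 with DESeq2, 130 without a filter, 2666 in 1 fit of all samples, 2674 with the replicate block and 3 at an adjusted p under 0.01. In TAMs, 1 fit of all samples gave 4837 against 7257, and for the difference of the effects the count of 4132 became 2220 at an adjusted p under 0.01 and 2446 to 7023 with a sample left out.

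With a replicate block, 3 chemokines were called in MDSCs (Ccl2, Ccl3, Ccl4) and 5 for the difference of the effects, and no other count of called members changed. Calls over all genes rose as well, from 633 to 2674 of 14806 in MDSCs. For the difference of the effects they rose from 4132 to 5231 of 16581. Whether the numbers pair the MDSC samples cannot be told. There, deviations of same-numbered samples correlated at 0.28 and those of different-numbered samples at -0.28. With 2 samples per genotype these values mirror each other and cannot decide. In TAMs same-numbered samples correlated at -0.14, 0.09 and 0.015, and different-numbered ones at -0.15 to 0.11.

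Directions turned only where the fold change was not called with all samples. In MDSCs, leaving out a sample took Ccl5 to between -0.07574 and 0.17 and Ccl7 to between -0.6151 and 1.562. For the difference of the effects, Ccl4 was 0.003198 with DESeq2 and Ccl7 0.07066 with voom weights, and leaving out a sample gave -0.2431 to 0.2141 for Ccl4, -0.9659 to 1.249 for Ccl7, -0.2365 to 0.03321 for Ccl5, -3.355 to 0.2365 for Ccl8 and -2.5 to 0.2626 for Ccl12. With 2 MDSC samples per genotype and 0 to 46 counts of Ccl7, Ccl8 and Ccl12 in them, little can be said of these genes.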
